A study of Drosophila melanogaster with 2 samples.

Results

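The genes described here are the small nucleolar RNA (snoRNA) genes of Drosophila melanogaster and the genes that host them. A snoRNA gene is any gene that the Ensembl annotation (release 115, BDGP6.54) types as snoRNA, and a host is a gene whose span contains a snoRNA gene on the same strand. The chromosome arms hold 269 snoRNA genes and 95 hosts, together 364 of the 18164 annotated genes other than transposable elements. Of the snoRNA genes, 247 had a host, 12 of them 2 hosts, and 22 had none. Of the hosts, 84 were protein-coding, 10 were non-coding RNA genes and 1 was a pseudogene. The members were chosen by annotation alone, not by any value in the peak lists.

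The series is a chromatin immunoprecipitation followed by sequencing (ChIP-seq) of espinas, a LIM-domain protein related to the planar cell polarity protein Prickle. Its only group was whole white prepupae, the start of metamorphosis, pooled from both sexes and of unknown age in the labels, from a transgenic line with espinas fused at its C-terminus to green fluorescent protein (GFP). Sonicated chromatin was precipitated with an antibody against GFP in 2 biological replicates, whose animals' rearing is not described, so their spread may be technical. Without untagged animals, and with controls not analysed here, binding by espinas and recovery that does not depend on it cannot be told apart. Whole animals mix all cell types.

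The authors deposited a list of regions for each replicate, a list for both replicates pooled, and an IDR list, the regions kept at an irreproducible discovery rate threshold. The IDR list held 10918 regions on the arms and the pooled list 29981. The authors gave every region a signal value, whose scale is not stated and which is used here only within a list, and a summit, the position of highest signal. Rank 1 is the strongest region of a list. The files give no read counts, so depth is unknown. A gene start held a summit when one lay within 500 bases of any annotated transcript start of the gene, and a snoRNA gene when one lay within 500 bases of the gene itself. Intervals are 95% Wilson intervals over genes and cover counting error only, and no test was made across genes, which are not replicates. Those over snoRNA genes take neighbouring genes, which can share a summit, as independent, so they are likely too narrow.

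SnoRNAs guide the chemical modification of ribosomal RNA in the nucleolus. Those with C and D boxes direct the methylation of the ribose, and those with H and ACA boxes direct the conversion of uridine to pseudouridine. In flies most are cut from introns of other genes, so their supply depends on transcription from the host's start. Some hosts, the Uhg genes, encode no protein. A few snoRNAs, such as U3, which takes part in cleaving the ribosomal RNA precursor, have promoters of their own.

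The annotated genes showed the features of both families. Of the 90 genes named for a methylation target or as orphan C/D snoRNAs, 63 had the C box sequence TGATGA in their first 20 bases, 83 had the D box CTGA in their last 20 bases, and 62 had both. Of the 114 genes named for a pseudouridine target or as orphan H/ACA snoRNAs, 103 had ACA exactly 3 bases from their end and none had the C box there. The C/D genes were shorter and poorer in G and C, with a median of 79 bases and 34.3% against 140 bases and 41.9%. The following 6 genes, each with an IDR summit within 500 bases, show both layouts. All are on dm6, from Release 6 of the genome, as DNA 5′ to 3′, with the C and D boxes or the ACA in capitals. Or-CD11a lies in RpL28 (chr3L:3222475-3222541, minus strand), Me28S-A774b in RpS12 (chr3L:13023580-13023652, plus), Me18S-A1576 in Uhg2 (chr2L:9894795-9894907, minus), Psi28S-1232 in RpL17 (chrX:6743675-6743815, minus), Psi18S-1275 in RpS29 (chr3R:9778398-9778537, plus), and Psi28S-3342 has no host and holds a summit within its own sequence (chrX:5524302-5524465, minus).
Or-CD11a: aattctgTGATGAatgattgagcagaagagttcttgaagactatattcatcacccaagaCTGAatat
Me28S-A774b: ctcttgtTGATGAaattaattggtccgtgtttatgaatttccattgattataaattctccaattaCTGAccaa
Me18S-A1576: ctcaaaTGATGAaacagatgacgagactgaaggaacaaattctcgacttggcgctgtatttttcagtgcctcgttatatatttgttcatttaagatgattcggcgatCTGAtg
Psi28S-1232: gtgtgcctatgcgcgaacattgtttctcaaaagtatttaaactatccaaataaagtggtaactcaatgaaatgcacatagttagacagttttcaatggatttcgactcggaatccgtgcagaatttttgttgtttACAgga
Psi18S-1275: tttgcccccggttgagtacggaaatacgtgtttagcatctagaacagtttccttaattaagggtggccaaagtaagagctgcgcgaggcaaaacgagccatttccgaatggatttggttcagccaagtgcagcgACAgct
Psi28S-3342: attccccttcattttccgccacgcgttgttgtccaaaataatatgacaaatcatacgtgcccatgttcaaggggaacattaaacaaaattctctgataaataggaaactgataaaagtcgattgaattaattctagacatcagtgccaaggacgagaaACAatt

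Starts of host genes held espinas-GFP summits more often than protein-coding genes at large. In the IDR list 71 of the 95 hosts (74.7%, 65.2 to 82.4) had a summit at a start, against 35.4% of the 13945 protein-coding genes. In the pooled list 82 hosts (86.3%, 78 to 91.8) had one, against 52%. By kind of host, the IDR share was 26 of 29 (89.7%, 73.6 to 96.4) for hosts that encode cytosolic ribosomal proteins. It was 38 of 55 (69.1%, 56 to 79.7) for other protein-coding hosts, and 7 of 11 (63.6%, 35.4 to 84.8) for non-coding hosts. These intervals overlap. In the pooled list the shares of the same kinds were 89.7% (73.6 to 96.4), 87.3% (76 to 93.7) and 72.7% (43.4 to 90.3). No share was computed for non-coding genes at large. The pseudogene host CR33222 and RpS6 had the same strongest summit, so the 71 hosts had 70 distinct strongest summits.

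**Figure D1:**
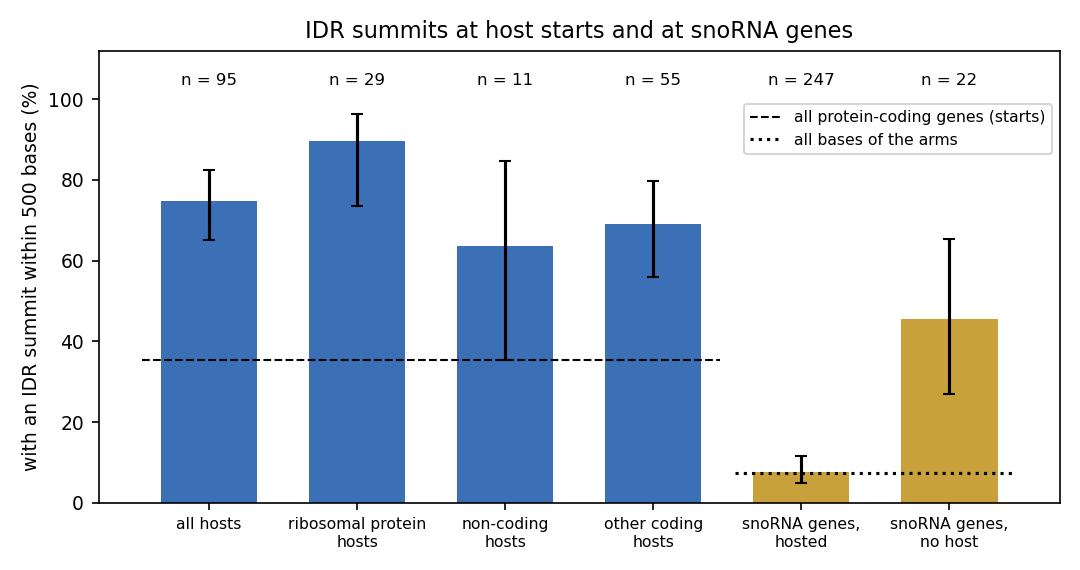
Bars give the percentage of genes with an IDR summit within 500 bases of a transcript start (hosts, blue) or of the gene (snoRNA genes, yellow), with 95% Wilson intervals and the number of genes above. The dashed line is the share of all protein-coding genes (35.4%) and the dotted line the share of the arms' bases (7.3%). All 4 host bars stand above the dashed line, but the interval of the 11 non-coding hosts (35.4 to 84.8) reaches it. Hosted snoRNA genes lie at 7.69%, near the dotted line, and those without a host at 45.5%.

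Among ribosomal protein genes, the shares of hosts and of genes that host no snoRNA were close. Of the 57 that host none, 47 (82.5%, 70.6 to 90.2) had an IDR summit at a start, and the intervals overlap. Among the other protein-coding genes, 4825 of 13804 that are not hosts (35%) had one, so the 69.1% of the 55 hosts lay above them. Genes with several annotated starts have more chances to hold a summit. Of protein-coding hosts with 1 start, 28 of 40 (70%, 54.6 to 81.9) held one, against 28.5% of all protein-coding genes with 1 start. With 2 starts it was 18 of 23 (78.3%) against 48.2%, and with 3 or more 18 of 21 (85.7%, 65.4 to 95) against 68.2%, where the interval of the hosts holds the share of all genes. The 27 hosts with 1 start that encode no ribosomal protein were at 15 (55.6%, 37.3 to 72.4). How strongly hosts are transcribed was not measured, and its part in these shares was not tested.

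In the IDR list the number of snoRNA genes in a host did not order the shares in one direction. Hosts of 1 snoRNA gene had a summit in 37 of 56 cases (66.1%, 53 to 77.1), hosts of 2 to 3 in 17 of 18 (94.4%, 74.2 to 99), and hosts of 4 or more in 17 of 21 (81%, 60 to 92.3). In the pooled list the shares rose in that order, from 45 of 56 (80.4%, 68.2 to 88.7) through 17 of 18 (94.4%) to 20 of 21 (95.2%, 77.3 to 99.2). Among the 71 hosts with a summit, the number of snoRNA genes and the signal were almost unrelated (Spearman's rho 0.0732, a description over genes of a single list). Median signals were 486, 624 and 484 in the same order. Because well-filled hosts were mostly covered, 214 of the 247 hosted snoRNA genes (86.6%) lay in a host with an IDR summit at a start.

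Regions at host starts also had a higher median signal than those at protein-coding genes at large. It was 499 in the 71 hosts, with a lowest of 166 and a highest of 3161. In all 4936 protein-coding genes with an IDR summit it was 375, and in all IDR regions 328. Each value is the strongest over all starts of a gene, and protein-coding hosts had a median of 2 starts against 1. With the nearest summit instead, the median of the hosts was 445, and that of all genes was not computed. The median was 667 in ribosomal protein hosts, close to the 652 of ribosomal protein genes that are not hosts, 469 in other protein-coding hosts, and 352 in non-coding hosts. Of the 71, 34 (47.9%) had a start of another gene within 500 bases of the strongest summit. At those starts the summit cannot be assigned to the host rather than its neighbour. The same share was not computed for all protein-coding genes, so it is not shown to be a trait of hosts.

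**Figure D2:**
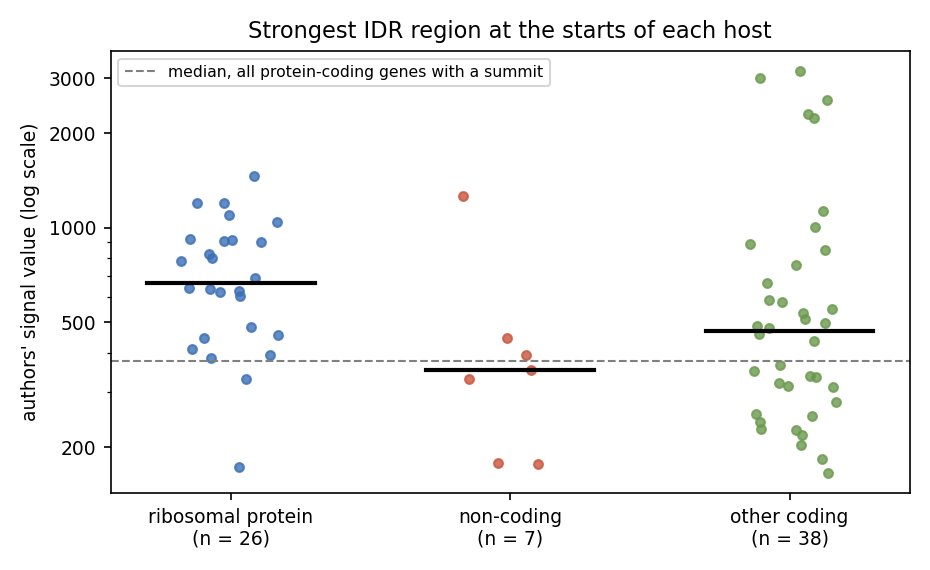
Each point is a host with an IDR summit, placed by the authors' signal value of its strongest region on a log scale, for 26 ribosomal protein, 7 non-coding and 38 other protein-coding hosts. Black lines are medians (667, 352 and 469) and the dashed line is the median of all protein-coding genes with a summit (375). The 5 strongest hosts are all protein-coding genes other than ribosomal protein genes.

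The 5 strongest hosts are all protein-coding, and none encodes a ribosomal protein. Stt3A, a catalytic subunit of the enzyme that attaches sugars to asparagine, had an IDR signal of 3161 at rank 91, with 1921 (rank 105) in replicate 1 and 1241 (rank 72) in replicate 2. Its summit lay 396 bases upstream, next to a start of bves. Msp300, a nesprin that ties nuclei to the cytoskeleton, had 2994 at rank 99, with 1956 (rank 96) and 1031 (rank 125) in the replicates. CG12316 had 2561, with ranks 150 and 191 in the replicates. These 3 stood in the top 200 of both replicate lists. The zinc finger transcription factor gene lola followed with 2303 (ranks 191 and 285), its summit 429 bases upstream of a start. CG1142 had 2232 (ranks 188 and 371). Msp300, CG12316 and CG1142 host 1 snoRNA gene each, Stt3A 3 and lola 4.

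Next by signal came 3 ribosomal protein genes and a non-coding host. RpL14 had an IDR signal of 1461, with 1029 (rank 483) and 450 (rank 860) in replicates 1 and 2. Its summit lay 27 bases upstream and is shared with Nelf-E, which encodes a subunit of a factor that holds back RNA polymerase. The non-coding host Uhg4 had 1261 (877 and 401 in the replicates), far above the other 6 non-coding hosts with a summit, which ranged from 178 to 445. RpL13A had 1203 (803 and 396) and RpL28 1198 (880 and 314), the latter beside eIF1, a translation initiation factor gene.

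The promoters of hosts carried some sequences known from growth genes more often than promoters at large. The TCT sequence of ribosomal protein promoters was searched for as CTTT on the gene's strand with its C within 5 bases of the start. The other sequences were searched on both strands from 250 bases before to 50 bases after each annotated start, and none of them contains another. TCT was present at 42.1% of starts of ribosomal protein hosts, 40.9% of starts of ribosomal protein genes that are not hosts, 11.8% of starts of other protein-coding hosts and 3 of 14 starts of non-coding hosts, against 6% of all protein-coding starts. The DNA replication-related element TATCGATA was present at 17.1% of the 181 host starts against 7.98%. It was at 24.6% in ribosomal protein hosts, 26.9% in ribosomal protein genes that are not hosts and 14.5% in other protein-coding hosts. Motif 1, here GGTCACAC, was present at 11% of host starts against 6.72%. In the same order of kinds it was at 17.5%, 14% and 8.18%. Each was found at 1 of 14 starts of non-coding hosts. The E-box CAGCTG was present at 10.5% of host starts against 17.9%. TATAAA was present at 39.2% of host starts against 42.2%, but counted by gene in 55 of 95 hosts (57.9%) against 51.2%. Several starts of a gene can share bases of these windows. A match describes the letters and is not a binding site. Windows of 5 hosts whose summit falls within the bases shown follow, on dm6 from Release 6 of the genome, 5′ to 3′ on the strand of the gene, from 150 bases before the start to 10 from it (Uhg2 from 200 before to 50 from it). Capitals mark TATCGATA and the CTTT of the TCT sequence. They are RpL23A (chr3L:1668645-1668804, minus strand), RpL28 (chr3L:3222951-3223110, minus), RpS12 (chr3L:13023202-13023361, plus), RpS5a (chrX:17148255-17148414, minus) and Uhg2 (chr2L:9894954-9895203, minus), whose window holds none of these.
RpL23A: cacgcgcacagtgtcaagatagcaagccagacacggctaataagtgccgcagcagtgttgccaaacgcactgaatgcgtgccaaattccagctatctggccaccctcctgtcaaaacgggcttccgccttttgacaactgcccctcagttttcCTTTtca
RpL28: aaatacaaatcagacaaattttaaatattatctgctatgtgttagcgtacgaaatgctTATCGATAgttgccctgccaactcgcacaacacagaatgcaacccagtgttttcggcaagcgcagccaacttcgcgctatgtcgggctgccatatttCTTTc
RpS12: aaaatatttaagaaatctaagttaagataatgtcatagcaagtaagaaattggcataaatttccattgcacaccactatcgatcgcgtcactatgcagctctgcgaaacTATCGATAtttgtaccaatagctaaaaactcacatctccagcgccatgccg
RpS5a: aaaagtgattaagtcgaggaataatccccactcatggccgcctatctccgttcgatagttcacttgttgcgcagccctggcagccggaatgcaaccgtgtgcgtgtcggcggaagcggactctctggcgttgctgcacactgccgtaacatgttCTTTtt
Uhg2: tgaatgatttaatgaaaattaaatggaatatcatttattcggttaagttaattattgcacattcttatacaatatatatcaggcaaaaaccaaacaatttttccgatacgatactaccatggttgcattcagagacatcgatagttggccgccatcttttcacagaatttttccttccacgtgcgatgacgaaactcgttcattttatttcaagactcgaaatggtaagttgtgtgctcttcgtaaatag

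In these 5 windows the strongest summit lay 81 bases upstream of the start in RpL23A, 54 upstream in RpL28, 4 downstream in RpS12, 69 upstream in RpS5a and 83 upstream in Uhg2. Over the 71 hosts the summit was upstream of the nearest start in 55 (77.5%), at a median of 63 bases upstream, and within 100 bases in 41 (57.7%, 46.2 to 68.5). Over all protein-coding genes with a summit, 82.6% were upstream, and 40.9% were within 100 bases. The closeness belonged to ribosomal protein genes, hosts or not. The summit was within 100 bases in 25 of 26 ribosomal protein hosts (96.2%) and in 43 of 47 ribosomal protein genes that are not hosts (91.5%), but in 12 of 38 other protein-coding hosts (31.6%) and 4 of 7 non-coding hosts (57.1%). For the other protein-coding hosts the median absolute distance was 138 bases, near the 127 of all protein-coding genes. Nearest to the edge of the 500 base window, skd, a Mediator subunit gene, had its nearest IDR summit 408 bases upstream of a start. The splicing factor gene x16 had its nearest IDR summit 1022 bases away and was not counted. In the pooled list the nearest summits lay 20 bases upstream of a start in skd and 78 downstream in x16.

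**Figure D3:**
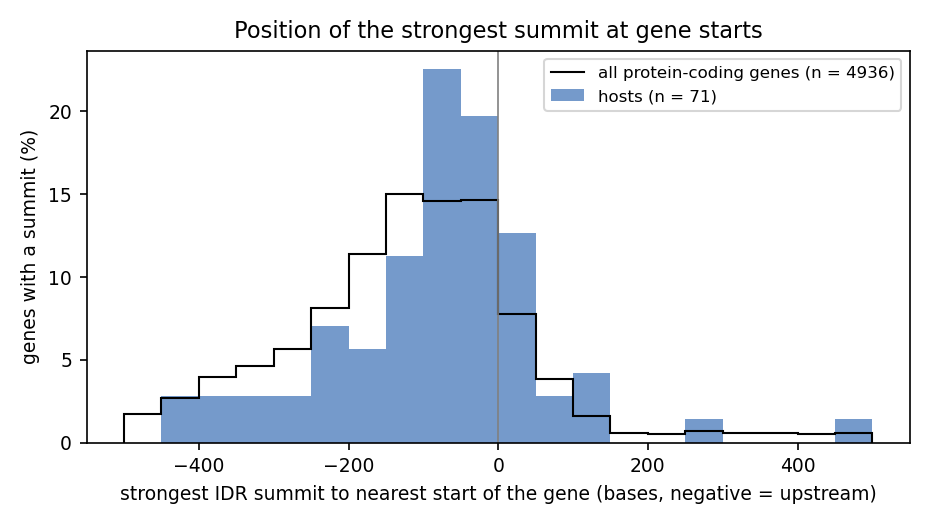
The distance of the strongest IDR summit from the nearest start of the same gene, in bins of 50 bases with upstream negative, is plotted as a percentage of the 71 hosts (blue bars) and of the 4936 protein-coding genes with a summit (black outline). The host bars are tallest between 100 bases upstream and 50 downstream, where they stand above the outline.

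Hosts with many snoRNA genes did not have the strongest starts. Arpc2, a subunit of the actin-nucleating Arp2/3 complex, hosts 17 and had an IDR signal of 251, with 127 (rank 9137) in replicate 1 and 126 (rank 5520) in replicate 2. Uhg1, a non-coding host of 16, had 178, with 129 (rank 9008) and 63.2 (rank 11389), which is near the end of the IDR list. The chromatin remodeller gene dom hosts 15 and had 321, with its summit 271 bases downstream of its start. Replicate 1 listed none there, and replicate 2 listed 145 (rank 4643). It is the only one of the 71 hosts that was not in both full replicate lists. RpS5a, the host of 14, was stronger, with 629 in the IDR list and 480 (rank 1833) and 148 (rank 4548) in the replicates.

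Of the hosts of 7 to 11 snoRNA genes, all but Sf3b3 had an IDR summit. Uhg5, host of 11, had a signal of 352 in the IDR list (202 and 149 in replicates 1 and 2). The translation regulator gene kra, host of 8, had 459 (292 and 185). RpS7 had 484 (332 and 127), Hrb98DE, an RNA-binding hnRNP gene, had 255 (172 and 73.5), and Uhg4 is given above; each hosts 7. Nop60B, also a host of 7, encodes the pseudouridine synthase of H/ACA snoRNAs, and had 349 (230 and 135). The splicing factor gene Sf3b3, host of 9, was listed only below the IDR threshold, with a pooled signal of 148 and ranks 14623 and 10229 in the replicates.

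Hosts of 4 or 5 snoRNA genes ranged from strong summits to none. RpL23A had an IDR signal of 1101 (797 and 310 in replicates 1 and 2), RpS16 had 910 (678 and 235), RpL17 had 802 (591 and 227) and RpL3 had 693 (429 and 280). The values of lola and RpL28 are given above. All of these had both replicates inside the strongest 10918 regions. Uhg2 had 445 (253 and 191). CG10576 and Uhg7 were listed only below the IDR threshold, with pooled signals of 74.9 and 43.0, and replicate 2 listed none at Uhg7. lncRNA:CR45184 had none in any list. Uhg7 lies within the span of RpL23A and holds the same 4 snoRNA genes, and lncRNA:CR45184 lies within that of Sf3b3. Of the Uhg genes with 3 snoRNA genes, Uhg3 had an IDR signal of 178 (104 and 70.8), and Uhg8 had 330 (150 and 180) with its summit 331 bases upstream, beside a start of CG5199.

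In all, 24 hosts had no IDR summit at a start. Of these, 11 had one in the pooled list with signals of 43.0 to 162, a median of 98.2, and 13 had none there. Those 13 are lncRNA:CR31647, lncRNA:CR42491, lncRNA:CR45184, bur, Gp210, Prp8, tn, Act57B, dmt, CG31191, RpS9, RpL5 and RpL15. These 13 were named after their values were seen. Among them, lncRNA:CR45184 and lncRNA:CR42491 lie within the spans of the larger hosts Sf3b3 and RpL22. RpL5 and RpL15 had a summit at a start in a replicate list, as given below. Act57B encodes an actin and Prp8 a core spliceosome protein, and both lay among 23 to 28 regions within 100 kb in the pooled and replicate lists without one at their own start.

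The replicates placed host starts in a similar order. With the same number of strongest regions taken from each replicate as the IDR list holds on the arms (10918), 70 hosts (73.7%) had a summit in replicate 1, 71 (74.7%) in replicate 2 and 65 (68.4%, 58.5 to 76.9) in both. Of all protein-coding genes 35.1% had one in replicate 1 and 34.9% in replicate 2. Over the 70 hosts with an IDR summit and a value in both full lists, the ranks had a Spearman's rho of 0.861, a description over genes; the IDR regions were themselves chosen from both replicates. Ribosomal protein hosts stood nearer the top in replicate 1. Of 26, 21 (80.8%) had the better rank there, and the median ratio of their rank in replicate 2 to that in replicate 1 was 1.45. Ribosomal protein genes that are not hosts did likewise (41 of 47, 87.2%, ratio 1.48), against 58.3% and 1.09 over 4849 protein-coding genes. Of the 7 non-coding hosts, 2 had the better rank in replicate 1.

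**Figure D4:**
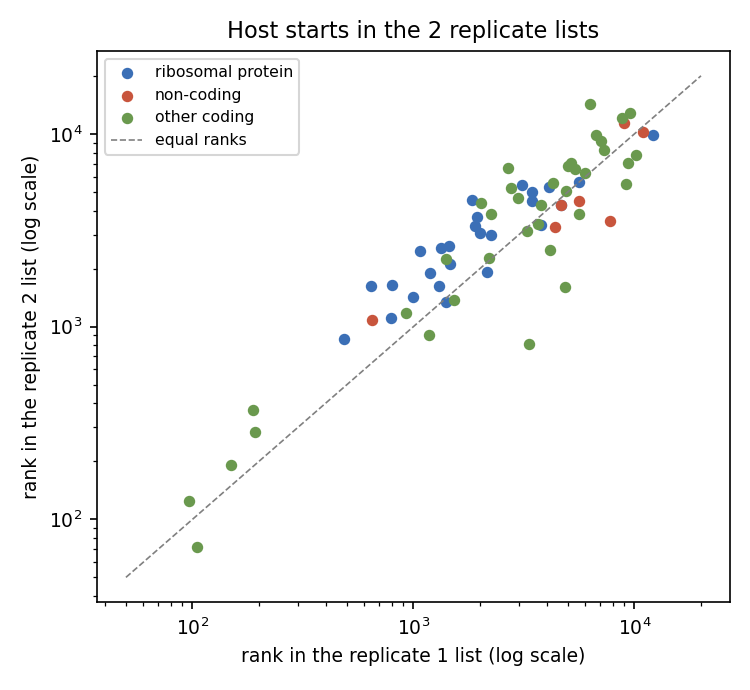
Each point is 1 of the 70 hosts with an IDR summit and a value in both replicate lists, placed by its rank in replicate 1 and in replicate 2 on log axes, where rank 1 is the strongest region and the dashed line marks equal ranks. Most ribosomal protein hosts (21 of 26) lie above the line, with a better rank in replicate 1.

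The snoRNA genes themselves held few summits. Of the 269, 29 (10.8%, 7.61 to 15.1) had an IDR summit within 500 bases, against 7.3% of the single bases of the arms and 8.15% of all stretches of 134 bases, the median length of a snoRNA gene. The interval holds the latter share. The 29 shared 24 strongest summits. By the same measure 15.9% of 290 tRNA genes and 28.1% of 32 small nuclear RNA genes had one. C/D genes (11 of 90, 12.2%) and H/ACA genes (12 of 114, 10.5%) had overlapping intervals in the IDR list, 6.96 to 20.6 and 6.12 to 17.5. In the full lists C/D genes had a higher share than H/ACA genes. In replicate 1 it was 44.4% (34.6 to 54.7) against 25.4% (18.3 to 34.1). In replicate 2 it was 38.9% (29.5 to 49.2) against 25.4% (18.3 to 34.1), where the intervals overlap. They also overlap in the pooled list, with 38.9% (29.5 to 49.2) against 27.2% (19.9 to 36). The 49 genes named for neither class, scaRNA genes aside, were at 38.8%, 28.6% and 46.9% in replicate 1, replicate 2 and the pooled list. Of these, 15 had both a C and a D box. Of 16 scaRNA genes, which encode relatives that work in Cajal bodies, 1 had an IDR summit. In the pooled list 91 (33.8%, 28.4 to 39.7) had a summit, against 17.6% of bases and 19.2% of such stretches. The strongest 10918 regions of replicates 1 and 2 gave 25 and 32.

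Most IDR summits near hosted snoRNA genes were those of the host's start. Hosted snoRNA genes were at 19 of 247 (7.69%, 4.98 to 11.7), near the 8.15% of stretches. For 16 of these 19 genes the strongest such summit lay within 500 bases of a start of the host, and some of them shared a summit. Hosted genes further than 500 bases from every start of a protein-coding gene, non-coding RNA gene or pseudogene had an IDR summit in 4 of 206 cases (1.94%, 0.758 to 4.89). Of stretches of 135 intron bases that far from starts, 7.89% lay within 500 bases of a summit. Hosted genes cluster, with up to 17 in 1 host, and the interval takes them as independent, so whether the shares differ was not tested. The same genes gave 52 of 206 (25.2%, 19.8 to 31.6) in the pooled list, and the interval holds the 20.9% of such intron stretches. The typical hosted snoRNA gene lay 1465 bases downstream of the nearest host start, and 227 of the 247 (91.9%) overlapped no exon of the host.

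**Figure D5:**
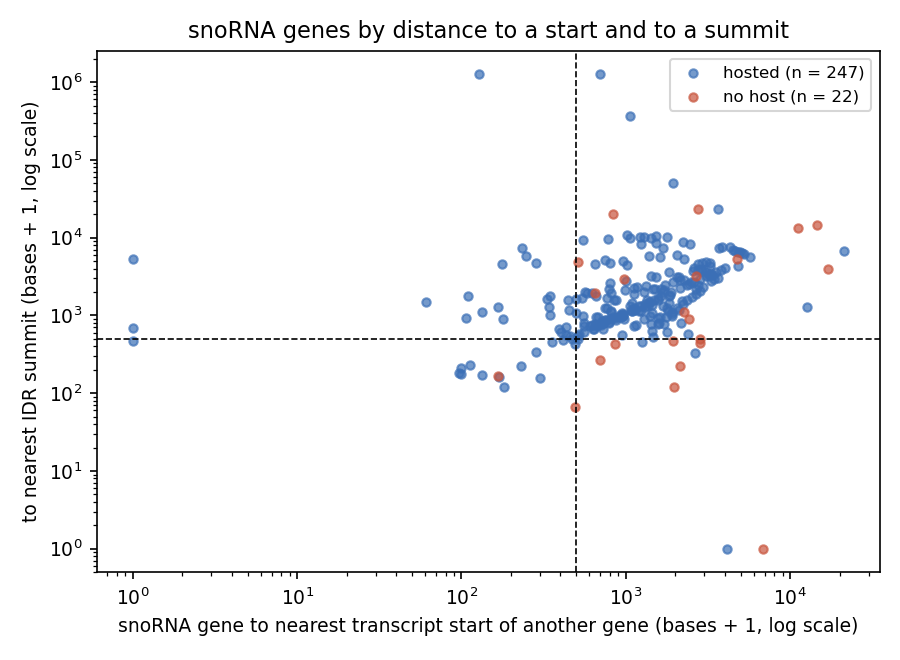
Each of the 269 snoRNA genes is placed by its distance to the nearest transcript start of a protein-coding gene, non-coding RNA gene or pseudogene and by its distance to the nearest IDR summit, both in bases plus 1 on log axes. The dashed lines mark 500 bases. Of the 206 hosted genes (blue) right of the vertical line, 4 lie below the horizontal line, and of the 20 without a host (red), 8 do.

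The 10 snoRNA genes with the strongest IDR summit within 500 bases included 8 whose summit was that of the host's start. U49:66Da in RpL14 lay 494 bases from a summit of signal 1461. Psi28S-2949 and Or-aca5 in Uhg4 lay 175 and 488 bases from 1 summit of 1261. Or-CD11a in RpL28 lay 473 bases from 1198, Psi28S-1232 in RpL17 455 bases from 802, and Me18S-C1096 in RpL3 498 bases from 693, the last within the 500 base window. The first gene outside it, lola-a in lola, was 524 bases away. Me28S-A774b in RpS12 lay 224 bases from a summit of 624, and Psi18S-1275 in RpS29 354 bases from 606. The other two of the 10, Or-ACA6 and Or-CD13, have no host. For U49:66Da and Me18S-C1096, replicate 1 listed no summit within 500 bases of the gene, and replicate 2 listed 450 and 280. Replicate 1 did list summits of 1029 and 429 at the starts of RpL14 and RpL3, which fell just outside the window of these snoRNA genes.

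Exceptions to the host start pattern were 3 hosted snoRNA genes. Psi18S-525a in Arpc2 lay 460 bases from a summit of signal 280 that was 798 bases from any start, with 189 and 95.1 in replicates 1 and 2. Or-CD4 in Uhg5 lay 330 bases from a summit of 263 (210 and 54.8), which was 3059 bases from the nearest start. Me18S-C1968 in Swim, a gene for a secreted protein that binds Wingless, held a summit of 205 (131 and 78.4) within its own sequence, while Swim had no IDR summit at a start. They were named after their values were seen, except the last. IDR summits fell inside 2 snoRNA genes in all, this one and Psi28S-3342, and pooled summits inside 13 (4.83%).

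SnoRNA genes without a host held summits more often. In the IDR list 10 of 22 (45.5%, 26.9 to 65.3) had one within 500 bases, against 8.15% of all stretches of 134 bases. The 10 had 7 separate strongest summits, because neighbouring genes share them. Counting only the 20 further than 500 bases from every start, 8 (40%, 21.9 to 61.3) had one. In the pooled list it was 16 of 22 (72.7%, 51.8 to 86.8), against 19.2% of such stretches. Outside every annotated gene, 7 of 12 had an IDR summit, and within a gene of the opposite strand 3 of 10.

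The strongest of these summits, with a signal of 642 and with 449 (rank 2006) and 193 (rank 3219) in replicates 1 and 2, served Or-ACA6 and Or-CD13, which lie opposite the tumour necrosis factor gene egr. snoRNA:185 lay 222 bases from a summit of 425 (233 and 189). Psi28S-1153 and 2 snoRNA genes beside it shared a summit of 327 (197 and 130), which lay 65 bases from the nearest of them. These were moderate regions, above or near the median of 328 for all IDR regions. The rest were weaker. The scaRNA gene MeU1:95C-A24 was 471 bases from a summit of 263 (171 and 89.6). Psi28S-3342 held one of 189 (125 and 63.6) within its sequence. Psi18S-301 was 118 bases from one of 184 (87.9 and 94.5), and Psi28S-2622, opposite the rhomboid protease gene stet, 165 bases from one of 173 (88.2 and 87.6). None of the 3 U3 genes had an IDR summit within 500 bases. Of these, U3:54Aa and U3:54Ab have identical sequences of 210 bases, and how reads from such repeats were placed was not examined.

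The genes for the proteins that build and trim snoRNAs were covered about as often as the 66 hosts that encode no ribosomal protein, of which 45 (68.2%) had an IDR summit. Of 27 genes listed for the snoRNA-protein complexes, their assembly, the nucleolus and Cajal bodies, the exosome, debranching and exonuclease trimming, 25 matched the annotation by symbol and 17 (68%, 48.4 to 82.8) had an IDR summit at a start, against 35.4% of protein-coding genes. The exosome held 5 of its 11 matched genes with a summit, and the assembly factors 4 of 4. The median signal of the 17 was 389. The strongest were pont, an assembly ATPase, at 1185 (633 and 558 in the replicates), Csl4, an exosome subunit, at 879 (611 and 289), NHP2, of the H/ACA core, at 798 (494 and 301), and rept, the partner of pont, at 637 (438 and 201). In all 4 both replicates ranked the region among their strongest 10918. Some proteins of the complexes are also encoded by hosts. Fib, the methyltransferase of C/D complexes, had 314, nop5, another C/D core protein, had 536, and Nop60B had 349, as given above. Nop56 and hoip, the remaining C/D core proteins of the list, had summits only below the IDR threshold, with pooled signals of 147 and 113.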

How the data were processed

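Whole-animal ChIP-seq of espinas-GFP white prepupae was measured in 2 replicates of 1 group. The authors deposited the signal value and the summit offset of each region in narrowPeak lists, per the file headers and the labels, on dm6 and dm3. Replicate lists and a pooled list were made against control files. Neither the peak caller nor its threshold is given in the sources used here. Only dm6 lists were used, and the IDR list kept 10918 of its 10936 regions on the arms 2L, 2R, 3L, 3R, 4 and X.

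Summits (start plus the deposited offset) were set against Ensembl 115 genes with Python 3.11.15, numpy 2.4.6, pandas 2.3.3 and scipy 1.17.1, after the overlap code was tested on simulated positions. Where several summits fell in the window, the strongest gave the value. Depth is unknown. The named genes are hosts of 4 or more snoRNA genes, the Uhg genes, the 10 strongest hosts (1 is not reported here) and snoRNA genes, snoRNA genes with a summit inside, those without a host that have one, the genes at the window's edge and the 4 strongest of the snoRNA protein list. Members and lists were chosen with earlier results of these data known. Alternatives changed the window, list, host definition and gene subset.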

Additional observations from a re-analysis of the deposited data

How the results depend on the processing

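The number of hosts with an IDR summit at a start (71) stayed within 1.5 times under 10 of 11 alternatives, among them windows of 250 bases (67 of 95, against 29.8% of protein-coding genes) and 1000 bases (71, against 39.5%) and the strongest 5459 IDR regions (55, against 20.2%). Leaving out hosts that encode ribosomal proteins, chosen after seeing the data, gave 45 of 66. With either replicate left out it was 70 to 71. The pooled count (82) and the median signal (499) stayed within 1.5 times throughout. The count of snoRNA genes with an IDR summit (29) depended on the window, with 15 at 250 bases (5.58%, against 4.79% of stretches of 134 bases) and 89 at 1000 bases (33.1%, against 13.9%). It was 17 with the strongest 5459 regions (6.32%, against 4.29% of stretches). Beyond 500 bases of host or protein-coding starts it was 13 of 228 (5.7%). With hosted genes only, chosen after seeing the data, it was 19 of 247 (7.69%). Both subsets hold fewer genes than the full 269, and 8.15% of all stretches, near starts or not, had a summit. Without a replicate the count over all 269 was 25 to 32. The pooled count (91) was 47 at 250 bases (17.5%, against 12.1% of stretches), 172 at 1000 bases (63.9%, against 28.3%) and 79 to 90 without a replicate. No paired analysis was possible because there was 1 group and no test.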

Other observations

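RpL15 on 3L was a ribosomal protein host with regions in both replicate lists at its start, 174 (rank 6597) in replicate 1 and 84.0 (rank 8640) in replicate 2, yet the pooled list held 0 regions within 100 kb of it. RpL5 on 2L had 150 (rank 7735) in replicate 1 alone, with 1 pooled region within 100 kb and none in the replicate 2 list. Both ranked inside the strongest 10918 regions of a replicate, so they would count as hosts with a summit there although the IDR list has none. They were picked out after their values were seen.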
